A study of Mus musculus with 4 samples.

Results

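The platelet-derived growth factors (PDGF) and vascular endothelial growth factors (VEGF) are described here through 9 genes, the ligands Pdgfa, Pdgfb, Pdgfc, Pdgfd, Vegfa, Vegfb and Vegfc and the receptors Pdgfra and Pdgfrb. They were chosen with earlier results of these data known and taken by gene symbol from 19938 genes measured on 4 Affymetrix arrays. All 9 were measured, each by a single probe set. The arrays read total RNA of Py2T cells, a mouse breast cancer line in which TGFβ sets off an epithelial to mesenchymal transition (EMT). In 1 group of 2 arrays the cells had no treatment, and in the other group of 2 they had been given TGFβ at 2 ng/ml for 5 days. Both groups are the same line in culture, and the labels name no allele, transgene or second agent in either. The labels call the samples biological replicates without saying how the cultures were kept apart. The p-values therefore cover no spread beyond these samples, and each gene's variance was drawn towards that of all genes.

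PDGF and VEGF proteins are related, disulphide-linked dimers that act on receptor tyrosine kinases. PDGF-A and PDGF-B are cut by proprotein convertases inside the cell, whereas PDGF-C and PDGF-D are secreted in a latent form and are activated by proteases outside it. The ligands are best known as signals from epithelial and tumour cells to stromal and vascular cells, and PDGF receptors are usually marks of mesenchymal cells. PDGF receptors have also been studied in mammary carcinoma cells that pass through EMT.

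The comparison of treated with untreated cells asks which of these genes change while TGFβ drives EMT. Of the 9 genes 6 rose, 0 fell and 3 did not pass, at a limma p adjusted over all genes by Benjamini and Hochberg of under 0.05. Pdgfc had the largest rise, at 10.8-fold, followed by Vegfa at 2.78-fold, Vegfc at 2.13-fold, Pdgfb at 2.02-fold, Pdgfrb at 2.01-fold and Pdgfa at 1.77-fold. Over all genes 13.6% passed, with 6.49% higher and 7.15% lower. Both TGFβ arrays lay above both untreated arrays for 7 of the 9 genes, against 27.6% of all genes, and below them for 1, against 25% of all genes. The median log2 difference of the 9 genes was 1.01, against 0.01 over all genes. Because earlier results were known when the 9 genes were chosen, these contrasts with all genes are descriptive and no test of the family. Of 8 other ligands and receptors of the family, given below, 0 rose and 1 fell. Values are log2 expression after the authors' RMA normalization, differences are TGFβ minus untreated, and errors are standard deviations (SD) of 2 arrays or standard errors (SE) of the fit.

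**Figure D1:**
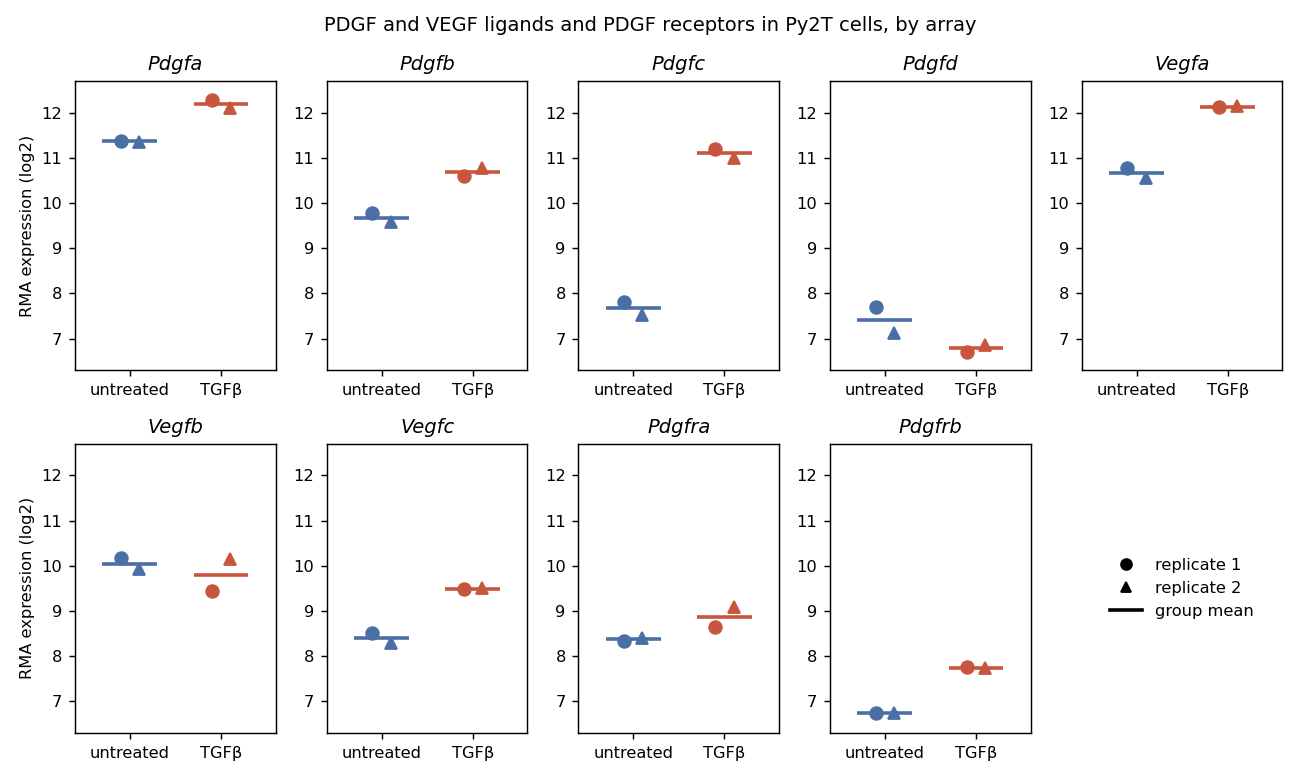
RMA expression (log2) of the 9 genes in each of the 4 arrays, with untreated arrays in blue, TGFβ arrays in red, circles for replicate 1, triangles for replicate 2 and lines for group means. Pdgfc moves from a mean of 7.67 to 11.10, and the groups overlap in Vegfb alone of the 9 genes.

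Pdgfc (probe set 10492689) encodes PDGF-C, a ligand of the receptor Pdgfra. It measured 7.81 and 7.52 without treatment and 11.21 and 10.99 after TGFβ. The lower TGFβ array lay more than 3 log2 units above the higher untreated array. The log2 difference was 3.43 ± 0.13 (SE), with a 95% interval of 3.12 to 3.75 and a limma adjusted p of 2.6e-04. In absolute size this difference ranked 15 among the 19938 genes.

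The stretch of the genome at the Pdgfc start is shown because Pdgfc had the largest difference of the 9 genes. RefSeq gives windows of 300 bases, from 250 before a transcript start to 50 after it, for 7 of the 9 genes (not Pdgfb and Pdgfrb), 9 windows in all. They were searched on both strands for CAGAC, a box that Smad factors bind, ACGTG, the core of the hypoxia response element, GGAATG, the motif of TEAD factors, and CAGGTG, an E-box bound by Zeb and Snail factors. In the Pdgfc window, chr3:81036166-81036465 on the plus strand of GRCm38.p6, capitals mark 2 matches to CAGAC and 2 to GGAATG, the last of them read on the opposite strand.
Pdgfc: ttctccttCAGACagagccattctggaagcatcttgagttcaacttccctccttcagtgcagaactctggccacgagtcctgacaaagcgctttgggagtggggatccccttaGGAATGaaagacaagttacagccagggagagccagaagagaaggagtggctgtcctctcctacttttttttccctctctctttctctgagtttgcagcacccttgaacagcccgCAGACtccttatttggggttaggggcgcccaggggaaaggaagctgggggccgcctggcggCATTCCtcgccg
CAGAC on either strand was present in 49.6% of all 32851 windows of this length and GGAATG in 14.7%. Of the 9 windows of these genes, the Pdgfc window was the only one with GGAATG. A match of letters does not show that a factor binds there.

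Genes with the pattern most like Pdgfc were sought by the Euclidean distance between mean-centred log2 values over the 4 arrays, with predicted genes left out. The nearest were Iglon5, Dgkk and Rab15, with distances of 0.25, 0.30 and 0.41. Iglon5, a cell adhesion molecule of the immunoglobulin family, measured 7.01 and 6.86 in untreated and 10.19 and 10.13 in TGFβ arrays. The log2 differences of Iglon5, the diacylglycerol kinase Dgkk and the small GTPase Rab15 were 3.22, 3.59 and 3.68. With 2 groups of 2 arrays this distance reflects mainly the size of the difference between groups.

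Pdgfa (probe set 10535043) encodes PDGF-A, a ligand of Pdgfra. It measured 11.37 and 11.36 in untreated arrays and 12.27 and 12.10 in TGFβ arrays. Both TGFβ arrays were the higher ones, and the log2 difference was 0.82 ± 0.09 (SE, limma adjusted p = 0.0036). Pdgfb (probe set 10430660) encodes PDGF-B, which binds both PDGF receptors and recruits pericytes to vessels. It measured 9.77 and 9.58 in untreated arrays and 10.60 and 10.78 in TGFβ arrays. The groups were again apart, with a log2 difference of 1.02 ± 0.11 (SE, limma adjusted p = 0.0035).

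Pdgfd (probe set 10583021) encodes PDGF-D, a ligand of Pdgfrb. It measured 7.70 and 7.12 in untreated arrays and 6.71 and 6.87 in TGFβ arrays. Both TGFβ arrays were lower, but the untreated arrays differed from each other by about as much as the groups did. The log2 difference was -0.62 ± 0.19 (SE), with a 95% interval of -1.09 to -0.15, and did not pass (limma adjusted p = 0.096). Without untreated replicate 2 the difference was -0.91, and without untreated replicate 1 it was -0.33. In the alternatives on all 4 arrays the limma adjusted p ranged from 0.012 to 0.16. The lowest came from a crossed pairing of replicate numbers, added after seeing the data. The TGFβ mean of 6.79 lies close to the median of all probe sets, 6.74 to 6.76 in the 4 arrays. Background may limit a difference there, which was not measured.

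The Pdgfd window, chr9:6168236-6168535 on the plus strand of GRCm38.p6, is shown as that of the PDGF ligand that did not rise, with 2 matches to CAGAC in capitals, 1 on each strand.
Pdgfd: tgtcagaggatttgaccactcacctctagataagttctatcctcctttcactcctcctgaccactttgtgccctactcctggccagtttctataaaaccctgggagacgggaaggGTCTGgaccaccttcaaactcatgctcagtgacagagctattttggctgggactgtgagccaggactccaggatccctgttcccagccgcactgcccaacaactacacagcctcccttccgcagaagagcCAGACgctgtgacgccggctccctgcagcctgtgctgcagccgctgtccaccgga
The genes most like Pdgfd over the 4 arrays, predicted genes again left out, were Lyst, Inmt and Dhrs3, at distances of 0.09, 0.09 and 0.10. Lyst, a regulator of lysosome traffic, differed by -0.68 on the log2 scale, the methyltransferase Inmt by -0.55 and the retinaldehyde reductase Dhrs3 by -0.55.

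Vegfa (probe set 10451198) encodes VEGF-A, the main growth factor of blood vessel endothelium. It measured 10.77 and 10.55 in untreated arrays and 12.13 and 12.14 in TGFβ arrays. The TGFβ arrays were nearly equal and both above the untreated ones. The log2 difference was 1.48 ± 0.10 (SE), with a 95% interval of 1.24 to 1.72 and a limma adjusted p of 8.6e-04. The probe set stands for several Vegfa transcripts, and splice forms were not told apart.

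The Vegfa window at the annotated gene start, chr17:46032328-46032627 on the minus strand of GRCm38.p6, is shown for the VEGF gene with the largest rise. Capitals mark 2 matches to CAGAC, 1 on each strand.
Vegfa: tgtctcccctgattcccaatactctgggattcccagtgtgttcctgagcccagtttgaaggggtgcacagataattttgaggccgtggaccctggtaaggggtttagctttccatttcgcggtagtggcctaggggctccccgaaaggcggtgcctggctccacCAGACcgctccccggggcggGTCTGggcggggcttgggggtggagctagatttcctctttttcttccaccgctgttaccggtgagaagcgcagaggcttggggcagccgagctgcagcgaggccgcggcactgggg
A second Vegfa window, at a start inside the gene, held 2 matches to CAGAC, 1 to ACGTG and 2 to CAGGTG. No other of the 9 windows held ACGTG or CAGGTG, against shares of 19.6% and 20.2% of all windows. No motif matches overlapped another motif in these windows.

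Vegfc (probe set 10571788) encodes VEGF-C, the main growth factor of lymphatic endothelium. It measured 8.52 and 8.28 in untreated arrays and 9.48 and 9.50 in TGFβ arrays. Both TGFβ arrays were above both untreated ones, with a log2 difference of 1.09 ± 0.10 (SE, 95% interval 0.84 to 1.34, limma adjusted p = 0.0023). The Vegfc window held 0 matches to the 4 motifs.

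Vegfb (probe set 10465559) encodes VEGF-B, a ligand of the receptor Flt1. It measured 10.18 and 9.92 in untreated arrays and 9.43 and 10.14 in TGFβ arrays. The groups overlapped, with TGFβ replicate 1 low and TGFβ replicate 2 inside the untreated range. The log2 difference was -0.26 ± 0.23 (SE), with a 95% interval of -0.84 to 0.32 (limma adjusted p = 0.61). It was 0.10 without TGFβ replicate 1 and -0.61 without TGFβ replicate 2, the latter passing (limma adjusted p = 0.0495), and the adjusted p ranged from 0.0495 to 0.93 over 14 alternatives.

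**Figure D2:**
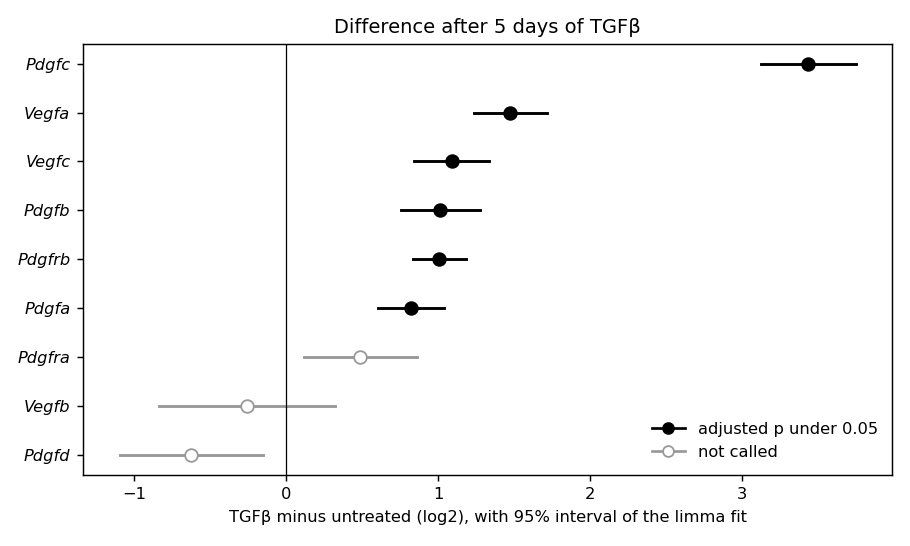
Fitted difference between TGFβ and untreated arrays (log2) for the 9 genes, with the 95% interval of the limma fit as a line, filled points for genes that passed and open grey points for those that did not. Pdgfc stands at 3.43, the other genes that passed lie between 0.82 and 1.48, and the interval of Vegfb includes 0.

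Of the PDGF receptors, Pdgfrb (probe set 10456046), a marker of pericytes and fibroblasts in tissue, measured 6.74 and 6.73 in untreated arrays and 7.76 and 7.73 in TGFβ arrays. The arrays within each group were nearly equal and the groups were apart. The log2 difference was 1.01 ± 0.07 (SE, 95% interval 0.83 to 1.18, limma adjusted p = 0.0011). The untreated mean lies at the median of all probe sets, where background may limit the fold, which was not measured.

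Pdgfra (probe set 10522503), the receptor for PDGF-A, PDGF-B and PDGF-C, measured 8.33 and 8.41 in untreated arrays and 8.64 and 9.08 in TGFβ arrays. Both TGFβ arrays were the higher ones, with replicate 2 well above replicate 1. The log2 difference of 0.49 ± 0.15 (SE, 95% interval 0.12 to 0.86) did not pass (limma adjusted p = 0.097). It was 0.71 without TGFβ replicate 1, which passed (limma adjusted p = 0.015), and 0.27 without TGFβ replicate 2, and the adjusted p ranged from 0.015 to 0.28 over 14 alternatives. The difference between the changes of Pdgfra and Pdgfrb was not tested.

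Markers of the cell types that usually carry these receptors were mostly dim in both groups. In each of the mural and fibroblast lists 1 of 7 markers was called, against 13.6% of all genes. Of 7 mural cell markers, 6 had both group means under 7, among them Rgs5, Abcc9 and Kcnj8, and Notch3 fell by 0.69. The mean level of the mural list was 6.11 and 6.13 in untreated and 5.98 and 6.08 in TGFβ arrays. Of 7 fibroblast markers 4 had both means under 7, Dcn and Lum included, and Col1a1, a collagen chain, rose by 0.46. The collagen chains Col1a2 and Col3a1 had both means above 7 and differed by 0.07 and 0.01, without passing. The fibroblast list had means of 6.20 and 6.23 in untreated and 6.21 and 6.34 in TGFβ arrays. The Notch3 call was lost without TGFβ replicate 1 or 2 (limma adjusted p = 0.069 and 0.068). The Col1a1 call was lost without untreated replicate 1 (limma adjusted p = 0.13) or TGFβ replicate 1 or 2 (limma adjusted p = 0.096 and 0.061).

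Of 10 endothelial markers 0 were called, against 13.6% of all genes in either direction. Of these 10, 9 had both means under 7, Pecam1, Cdh5 and Tek included, and the tenth, Egfl7, differed by -0.12. Of 5 leukocyte markers 0 were called and 4 had both means under 7. The macrophage gene Cd68 was the exception, at 9.63 and 8.87 in untreated and 7.60 and 8.33 in TGFβ arrays (limma adjusted p = 0.052). It was called lower when dim genes were left out, and also without untreated replicate 2 or TGFβ replicate 2. Of 8 epithelial markers 5 fell, with log2 differences of -1.10 for Epcam, -1.25 for Cdh1, -2.18 for Cldn7, -1.41 for Esrp1 and -1.60 for Grhl2, while the keratins Krt8, Krt18 and Krt7 stayed above 13 in every array. Over all genes 7.15% were called lower. The Cdh1 call was lost without untreated replicate 1. The mean of the epithelial list was 11.94 and 11.86 in untreated and 10.79 and 11.08 in TGFβ arrays. In bulk RNA, a change in the number of cells that express a gene and a change in RNA per cell cannot be told apart.

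The other ligands and receptors of the family were compared to see whether the VEGF side changed beyond its ligands. Of 8 such genes 0 rose, 1 fell and 7 did not pass, with a median log2 difference of -0.13. That count is close to the 13.6% of all genes that passed. The endothelial VEGF receptors Flt1, Kdr and Flt4 had both group means under 7. Their values ranged over 6.21 to 6.77 for Flt1, 5.32 to 5.41 in untreated and 5.15 to 5.41 in TGFβ arrays for Kdr, and 6.35 to 6.61 for Flt4. The log2 differences were 0.24, -0.09 and -0.17.

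Nrp2, a neuropilin that binds VEGF-C and semaphorins, was bright on these arrays and fell by 0.48, from 11.34 and 11.25 to 10.77 and 10.87 (limma adjusted p = 0.016). Its call was lost without untreated replicate 1 (limma adjusted p = 0.089) or TGFβ replicate 1 (limma adjusted p = 0.063), and the adjusted p ranged from 0.0075 to 0.089 over 14 alternatives. Nrp1, the other neuropilin, measured 9.19 and 9.33 in untreated and 9.42 and 8.63 in TGFβ arrays. The TGFβ arrays lay on opposite sides of the untreated ones. The difference of -0.24 became -0.63 without TGFβ replicate 1 and 0.16 without TGFβ replicate 2. In the main fit it did not pass (limma adjusted p = 0.67).

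Pgf, placental growth factor, measured 10.56 and 10.40 in untreated and 10.12 and 10.27 in TGFβ arrays, a difference of -0.29 (limma adjusted p = 0.12). Pdgfrl, a PDGF receptor-like protein, differed by 0.31 with both means under 7 (limma adjusted p = 0.069). It passed with an intensity trend and robust variances (limma adjusted p = 0.046), and its adjusted p ranged from 0.042 to 0.29 over 13 alternatives. Vegfd, the relative of Vegfc, differed by -0.10, also with both means under 7.

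Genes whose products cut or help to cut these ligands went both ways. Of 10 measured genes 3 rose, 3 fell and 4 were not called. Over all genes 13.6% were called in either direction. The differences ran from -1.86 to 1.62, with a median of 0.03. Furin, a proprotein convertase that cuts PDGF-A, PDGF-B and VEGF-C precursors, measured 11.01 and 10.85 in untreated and 12.22 and 11.92 in TGFβ arrays. Its arrays did not overlap between groups, and it rose 2.20-fold (limma adjusted p = 0.0039). Plat, tissue plasminogen activator, which activates latent PDGF-C, went from 7.95 and 8.22 to 9.87 and 9.54. It rose 3.07-fold (limma adjusted p = 0.0021), the largest rise of this list. Ccbe1, a secreted cofactor for the cleavage of VEGF-C, rose 1.56-fold, from 11.52 and 11.40 to 12.19 and 12.01 (limma adjusted p = 0.010).

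St14, the membrane protease matriptase, which can activate latent PDGF-D, had the largest fall of the list, 3.63-fold. It measured 11.56 and 11.43 in untreated and 9.38 and 9.89 in TGFβ arrays (limma adjusted p = 0.0023). Pcsk6, another proprotein convertase, was 3.22-fold lower, from 9.61 and 9.64 to 7.75 and 8.12 (limma adjusted p = 0.0014). Adamts14, a relative of the VEGF-C protease Adamts3, fell by 0.47 (limma adjusted p = 0.046). That call was lost without untreated replicate 1 (difference -0.43), untreated replicate 2 (-0.50) or TGFβ replicate 1 (-0.33). Its lowest limma adjusted p over 14 alternatives, 0.014, came from a crossed pairing of replicate numbers that was added after seeing the data. In the other alternatives on all 4 arrays it ranged from 0.035 to 0.099. Adamts3 itself differed by 0.08 and the urokinase Plau, which also acts on PDGF-D, by -0.26, without passing.

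**Figure D3:**
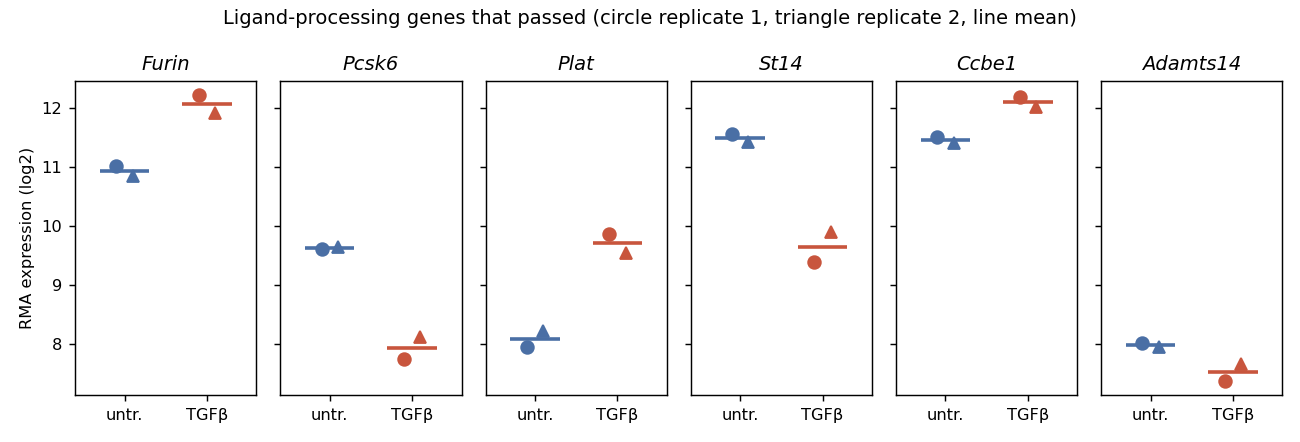
RMA expression (log2) in each array of the 6 ligand-processing genes that passed, with untreated arrays in blue, TGFβ arrays in red, circles for replicate 1, triangles for replicate 2 and lines for group means. Furin, Plat and Ccbe1 are higher in both TGFβ arrays, and Pcsk6, St14 and Adamts14 are lower in both.

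Among proteins that carry the signal of these receptors into the cell 6 rose, 1 fell and 15 did not pass of 22 measured, with a median log2 difference of 0.13. Over all genes 6.49% were called higher and 7.15% lower. The Src family kinase Fyn had the largest rise, from 7.19 and 7.33 to 8.87 and 8.80, or 2.98-fold (limma adjusted p = 5.2e-04). Its relatives Src and Yes1 differed by 0.25 and -0.10 without passing. Plcg1, a phospholipase recruited by activated receptors, rose by 0.67, and the ubiquitin ligases Cbl and Cblb, which direct receptors to degradation, rose by 0.82 and 0.51. The Cblb call was lost without untreated replicate 2 (limma adjusted p = 0.064, with a range of 0.0068 to 0.064 over 14 alternatives).

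The regulatory subunits of phosphoinositide kinase moved in opposite directions. Pik3r1 fell by 0.72, from 9.86 and 9.91 to 9.26 and 9.07 (limma adjusted p = 0.0063). Pik3r2 rose by 0.59, from 9.54 and 9.13 to 9.86 and 9.99 (limma adjusted p = 0.049). The Pik3r2 call was lost without untreated replicate 2, where the difference was 0.39, and without TGFβ replicate 1 (0.65) or 2 (0.53). Its lowest limma adjusted p over 14 alternatives, 0.0075, came from the crossed pairing added after seeing the data. In the other alternatives on all 4 arrays it ranged from 0.029 to 0.11. The adaptor Grb2 rose by 0.31 (limma adjusted p = 0.041), but leaving out any array ended the call, at adjusted p between 0.099 and 0.18, as did an intensity trend with robust variances (limma adjusted p = 0.092, range 0.030 to 0.18 over 14 alternatives).

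Of 6 phosphatases that remove phosphate from these receptors 0 rose, 1 fell and 5 did not pass, with a median log2 difference of -0.09. The share of all genes called in either direction was 13.6%. Ptprj fell by 0.64, from 10.08 and 10.03 to 9.57 and 9.25 (limma adjusted p = 0.022). The call was lost without untreated replicate 1 (difference -0.62) or 2 (-0.67). The lowest limma adjusted p of Ptprj over 14 alternatives, 0.0082, came from the crossed pairing added after seeing the data. In the other alternatives on all 4 arrays it ranged from 0.012 to 0.041. Ptpn12, which acts on Pdgfrb, differed by 0.18 without passing.

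Vegfa is a classical target of the hypoxia-inducible factors, and the genes of oxygen sensing were read beside it. Of 9 measured genes 1 rose, 1 fell and 7 did not pass, with a median log2 difference of -0.06, against 13.6% of all genes passing. Hif1a measured 10.95 in both untreated arrays and 10.76 and 10.81 in TGFβ arrays, a difference of -0.16 (95% interval -0.34 to 0.02). Its partner Arnt differed by -0.03 (95% interval -0.23 to 0.18). Epas1, the other main oxygen-regulated subunit, fell by 0.98, from 8.35 and 7.99 to 6.95 and 7.43 (limma adjusted p = 0.026). That call was lost without untreated replicate 1 (difference -0.79) or TGFβ replicate 1 (-0.74). The lowest limma adjusted p of Epas1 over 14 alternatives, 4.8e-04, came from the crossed pairing added after seeing the data. In the other alternatives on all 4 arrays it ranged from 0.014 to 0.084. Egln3, an oxygen-dependent hydroxylase that marks these factors for degradation, rose by 0.71, from 8.74 and 8.54 to 9.42 and 9.27 (limma adjusted p = 0.0097). These are RNA levels, and the protein level of the factors, through which oxygen mainly acts, was not measured.

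**Figure D4:**
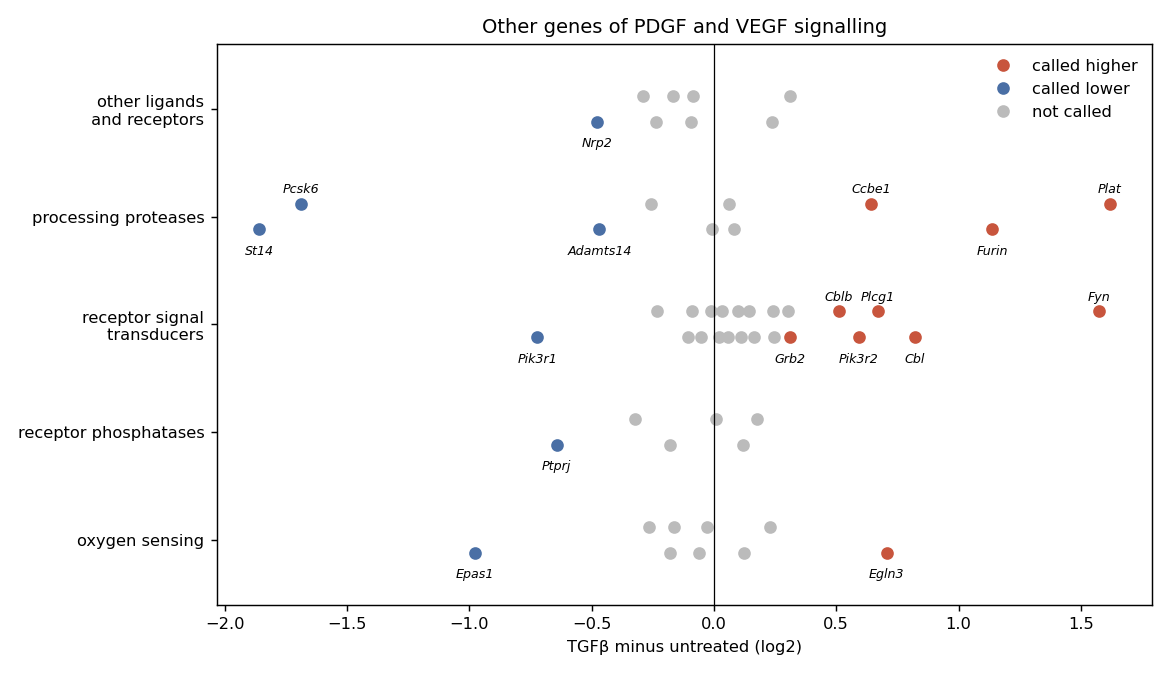
Difference between TGFβ and untreated arrays (log2) for the 55 other genes of PDGF and VEGF signalling, a point per gene in 5 lists, red for genes called higher, blue for genes called lower and grey for the rest. Of the 55 genes 10 were called higher and 7 lower, with Plat and Fyn farthest to the right and St14 and Pcsk6 farthest to the left.

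Over these 5 lists 10 genes rose, 7 fell and 38 did not pass of 55 measured, with a median log2 difference of 0.02, close to the 0.01 of all genes. The 17 called genes of 55 compare with 13.6% of all genes, and the differences ran from -1.86 to 1.62.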

How the data were processed

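The values are deposited log2 expression values per probe set, made by the authors with RMA in the R package oligo, per the submitters' processing notes. The sources used here give no version, probe-set annotation or array build. RMA makes the arrays' distributions alike, so differences are relative to the other probe sets, and no detection calls come with it. Precision is limited by the number of arrays.

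Of 35556 probe sets 21789 carry 1 symbol in GEO's platform annotation, 1621 several and 12146 none. The brightest single-symbol probe set stood for each of 19938 genes. The groups were compared in R 4.3.3 by limma 3.58.1 (lmFit and eBayes, two-sided, 2 residual and 3.77 prior degrees of freedom), with Benjamini-Hochberg adjustment over all genes and calls at an adjusted p under 0.05. With 2 arrays against 2, exact permutation gives no p below 0.333 and was not used. The procedure was tested on simulated data.

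The 9 genes and the lists (5 of pathway genes, 5 of markers) were chosen with earlier results of these data known. Named were all 9, every called pathway gene, all of the other ligands and receptors, and called markers; further uncalled genes were named after their values were seen. Some list genes are not reported here. Promoter windows are from RefSeq (GRCm38.p6). Alternatives were 3 rescalings, 2 filters on dim genes, the mean of all probe sets, another variance model and a replicate block. Others were a 2-fold threshold, leaving out each array and, added after seeing the data, a replicate block with crossed numbers.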

Additional observations from a re-analysis of the deposited data

How the results depend on the processing

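Pdgfb, Pdgfc, Pdgfrb, Vegfa and Vegfc kept their direction and passed under every alternative that tested them, up to 14 each. These are not independent tests. Each of the 9 genes has 1 probe set, so the mean of all probe sets left their differences unchanged. The 2-fold threshold reused the adjusted p of the main fit. Pdgfrb and Pdgfd were not tested without the dimmer 50% of genes. Pdgfa (0.82) failed the 2-fold threshold and no other alternative. With each array left out in turn the log2 difference ranged from -0.91 to -0.33 for Pdgfd, 0.27 to 0.71 for Pdgfra and -0.61 to 0.10 for Vegfb. Among genes that were not called it ranged from -0.28 to 0.094 for Vegfd, -0.22 to 0.048 for Kdr and -0.63 to 0.16 for Nrp1. With an array left out, the group of 1 was assumed to vary like the other. A call gained there can come from leaving out that group's spread. Over the whole array 2720 genes were called, 1535 and 1764 without untreated replicates 1 and 2, 1811 and 2260 without TGFβ replicates 1 and 2, and 677 at a 2-fold threshold. At that threshold 5 of the pathway genes were called instead of 17. With the replicate number as a block 1624 genes and 12 pathway genes were called, and all 6 called PDGF and VEGF genes passed. Of the pathway genes, Nrp2, Adamts14, Grb2, Pik3r2 and Epas1 were not called under the block, nor was the marker Col1a1 (limma adjusted p = 0.075) or, of the vessel factors, Adm (limma adjusted p = 0.094). The labels do not say that numbers pair the samples, and deviations of same-numbered arrays correlated at -0.21 over genes. A crossed pairing, added after seeing the data, called 8 of the 9 genes, with Pdgfra (0.49) and Pdgfd (-0.62) as the additional ones. It also called more genes over the whole array, 3640 of 19938, against 2720 in the main fit. Adamts14 was also not called after cyclic loess or repeated quantile normalization, and Pik3r2 after cyclic loess. Where an alternative changed a call, the cause was not tested beyond the fewer arrays or the stricter threshold.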

Other observations

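Other secreted factors that act on blood vessels, a list of 20 genes drawn up after the values of the PDGF and VEGF genes were known, changed in both directions. Of 19 measured genes 4 rose, 6 fell and 9 did not pass, with a median log2 difference of 0.04, against 13.6% of all genes passing. Timp3, a metalloproteinase inhibitor of the matrix that also blocks VEGF-A binding to Kdr, had the largest rise, from 9.69 and 9.85 in untreated to 12.59 and 12.17 in TGFβ arrays, or 6.11-fold (limma adjusted p = 6.2e-04). The chemokine Cxcl12 rose 2.19-fold, the angiopoietin Angpt4 2.08-fold and the vasohibin Vash2 1.61-fold. Apln, the peptide apelin, had the largest fall, from 11.08 and 10.96 to 9.29 and 9.23, or 3.38-fold (limma adjusted p = 3.7e-04). The vasoconstrictor precursor Edn1 was 2.23-fold lower, the semaphorin Sema3f 1.71-fold lower and the anti-angiogenic thrombospondin Thbs1 1.51-fold lower. Efemp1 and Adm also passed as lower, by 0.64 and 0.35 on the log2 scale, with both group means under 7. The Adm call was lost without any single array, with limma adjusted p between 0.059 and 0.18, and the Thbs1 call without untreated replicate 1 (limma adjusted p = 0.061).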
